A study of Mus musculus with 62 samples.

Results

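The following 9 complement genes were followed in mouse brown adipose tissue during the growth of melanoma: the components C1ra, C1s1, C4b, C4a, C2, C3 and Cfb and the regulators Serping1 and Cd59b. These 9 genes were listed by name out of the 47643 gene symbols of the deposited table, and C4b had been singled out beforehand as the earliest marker of the cachectic arm. All 9 passed the filter on low values, which asked for 1 TPM or more in 5 or more libraries and kept 12581 genes. TPM gives the abundance of a transcript corrected for its length, on a total that is the same in each library. The 9 genes were selected on their TPM in the cachectic arm relative to the other arms, so those differences are given for them as a description. Where the text counts which of the 9 passed the threshold in a contrast with CAC, the count describes them beside the share of all genes, and nothing is read from it.

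The tissue came from female mice that were 2 months old, in 3 arms. CAC mice had been injected with melanoma cells described as cachectic, NCAC mice with melanoma cells described as non-cachectic, and Con mice had a mock injection. Tissue was taken at 2, 4, 6 and 8 weeks, with 5 libraries per group and 7 for CAC at 8 weeks, 62 in all. The sample labels give the strain as C57BL/6J, while the series text gives NCI Ath/nude, a kind of mouse that lacks a thymus and most T cells but keeps B cells and innate immune cells. The melanoma cells are not named in the labels, and the extraction text mentions another tumour cell, LLC, at another time. The same number stands in the titles of CAC library 1 and Con library 1 of 4 weeks, and the titles do not say what it numbers.

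Complement is a cascade of plasma proteins that marks cells and particles for removal, recruits immune cells and can form pores in membranes. In the classical pathway C1q binds a surface and activates the proteases C1r and C1s, which cut C4 and C2 into the enzyme that cleaves C3. In the alternative pathway factor B binds C3b and is cut by factor D, also called adipsin, which fat cells release. The liver makes most circulating components, and fat tissue, fibroblasts and macrophages also make some of them.

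The depth of each library is unknown because TPM keeps no read totals. Between 10851 and 12347 genes reached 1 TPM in a library, and transcripts of the mitochondrial genome took 39.6% to 66.1% of the total, lowest in Con libraries 3 and 4 of 4 weeks. Markers of brown adipocytes were high in every library, with Ucp1, the uncoupling protein of brown fat, at 1640.0 to 9679 TPM. Among 8 such markers, limma at 8 weeks called Ucp1 and Ppara lower in CAC than in Con, beside 1.97% of all genes. Cidea, Adipoq and Fabp4 were called higher, beside 52.1% of all genes. Over all tested genes the log2 difference between CAC and Con had a median of 0.09, -0.08, 0.18 and 0.28 at 2, 4, 6 and 8 weeks. Calls were therefore also made after median-of-ratios rescaling, which brings that median to between -0.01 and 0.00. In bulk tissue, fewer cells of a type and less RNA per cell cannot be told apart. CAC library 3 of 8 weeks was the lowest of its group for 4 of the 9 genes, and results of that week are also given without it.

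C4b encodes the fourth component, which is cut by C1s and attaches to surfaces (chromosome 17, 34728380 to 34743882, minus strand, mm10). At 2 weeks it stood at 25.8, 71.1, 131, 90.5 and 23.8 TPM in the CAC libraries, against 10.01, 7.28, 9.25, 22.5 and 10.9 TPM in NCAC and 8.68, 4.29, 13.8, 3.32 and 15.9 TPM in Con. The CAC libraries already lay above all NCAC and Con libraries of that week, although CAC libraries 1 and 5 came close to the highest NCAC library. At 4 weeks the values were 153, 304, 109.8, 309 and 148 TPM in CAC, 11.99, 13.7, 10.03, 11.9 and 12.1 TPM in NCAC and 10.9, 12.1, 18.0, 19.2 and 9.19 TPM in Con. At 6 weeks they were 228, 257, 456, 224 and 304 TPM in CAC, 24.0, 18.1, 13.6, 34.4 and 23.6 TPM in NCAC and 13.0, 21.1, 16.7, 11.8 and 20.9 TPM in Con. From 4 weeks on there was a wide gap between CAC and both other arms. At 8 weeks C4b reached 633, 686, 181, 503, 720.4, 717 and 823 TPM in CAC, against 10.5, 10.3, 16.8, 10.4 and 16.0 TPM in NCAC and 9.39, 12.4, 12.4, 19.5 and 16.5 TPM in Con. The third CAC library, at 181 TPM, was the lowest of its group and still above every NCAC and Con library of any week.

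On the log2(TPM + 1) scale C4b differed between CAC and Con by 2.67 (SE 0.37), 3.72 (SE 0.37), 4.04 (SE 0.37) and 5.26 (SE 0.34) at 2, 4, 6 and 8 weeks. Between CAC and NCAC it was 2.22 (SE 0.37), 3.87 (SE 0.37), 3.65 (SE 0.37) and 5.37 (SE 0.34) at the same weeks. These differences share the CAC libraries. Ordered by mean TPM, the 4 CAC groups were the highest, with 68.4 ± 45.3, 205 ± 94.3 and 294 ± 96.0 TPM (SD, n = 5 each) at 2, 4 and 6 weeks and 609 ± 212 TPM (n = 7) at 8 weeks. NCAC at 6 weeks followed at 22.7 ± 7.80 TPM (n = 5), and Con at 2 weeks came last at 9.20 ± 5.59 TPM (n = 5). Each of the 11 neighbouring pairs in this order overlapped in range. Of the 22 CAC libraries 20 lay above the highest NCAC or Con library of any week, 34.4 TPM, and the other 2 were CAC libraries 1 and 5 of 2 weeks.

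**Figure D1:**
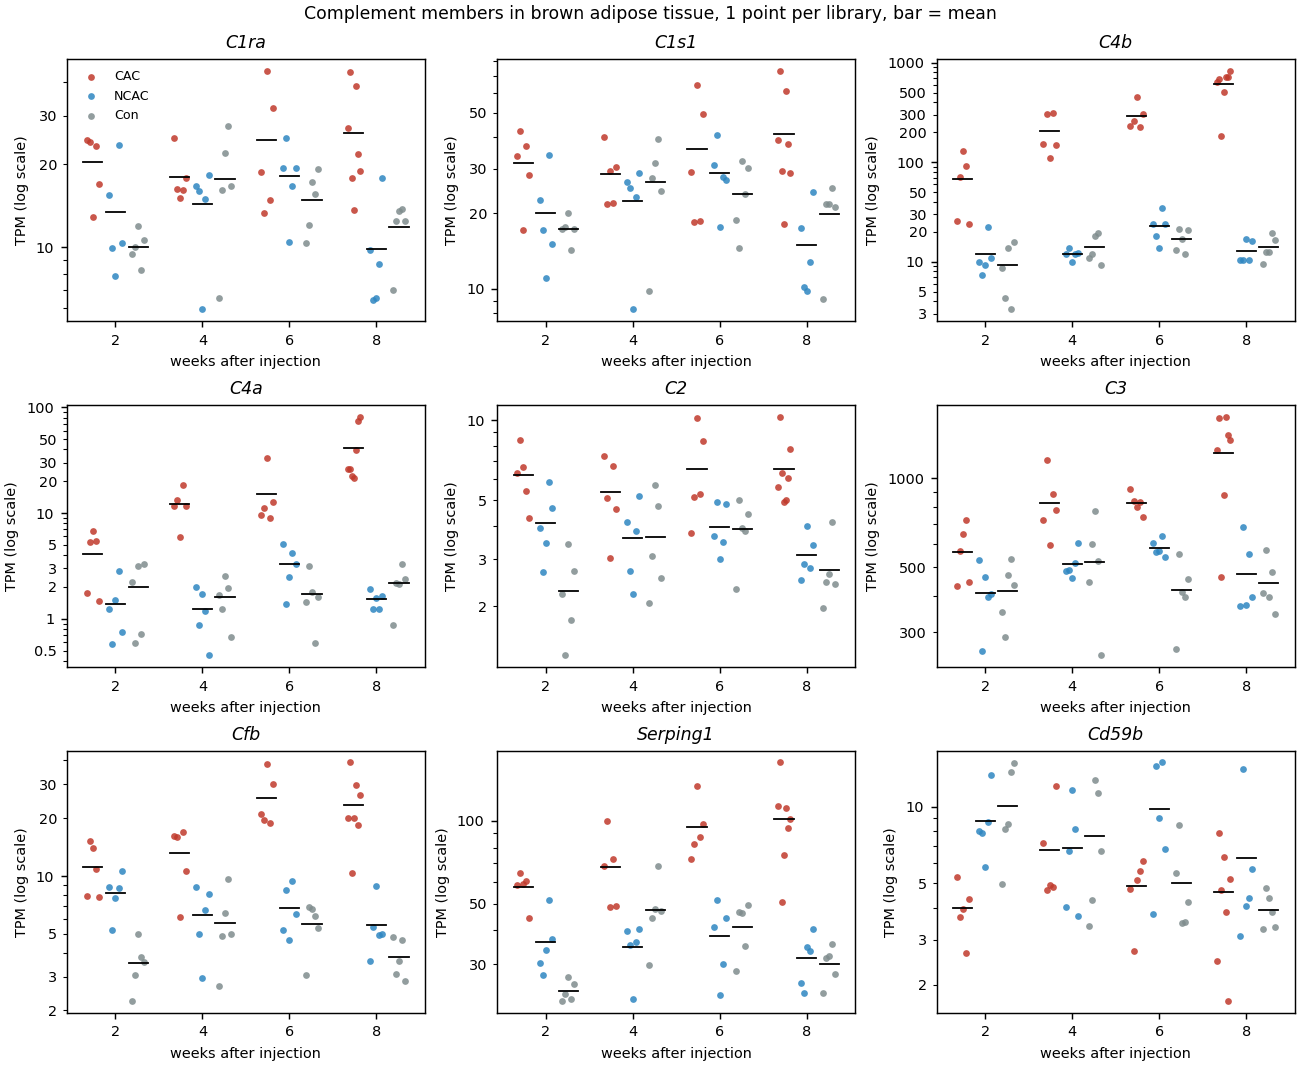
TPM on a log scale for the 9 complement genes at 2, 4, 6 and 8 weeks after injection, 1 point per library, with CAC (red) left of NCAC (blue) and Con (grey) at each week and a black bar at the group mean. C4b separated CAC from both other arms at every week, with CAC at 181 to 823 TPM and Con at 9.39 to 19.5 TPM at 8 weeks, whereas Cd59b overlapped between CAC and Con at each week.

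C4a, the neighbouring C4 gene (chromosome 17, 34809092 to 34823464, minus strand), is annotated as a processed transcript in GENCODE and was much lower than C4b. At 2 weeks it stood at 1.74, 5.29, 6.70, 5.39 and 1.46 TPM in CAC, 1.25, 0.576, 1.51, 2.81 and 0.748 TPM in NCAC and 2.23, 0.595, 3.15, 0.722 and 3.28 TPM in Con, with overlapping ranges. At 8 weeks it stood at 26.0, 26.2, 22.5, 21.3, 39.4, 73.4 and 81.5 TPM in CAC, against 1.92, 1.25, 1.57, 1.23 and 1.65 TPM in NCAC and 0.871, 2.19, 2.14, 3.30 and 2.37 TPM in Con. All CAC libraries of 8 weeks lay above the other arms, and CAC libraries 6 and 7 were the highest. At 4 weeks the range was 5.87 to 18.5 TPM in CAC, 0.453 to 1.98 TPM in NCAC and 0.668 to 2.53 TPM in Con, and at 6 weeks 9.03 to 32.9 TPM in CAC, 1.37 to 5.07 TPM in NCAC and 0.593 to 3.15 TPM in Con. The log2 difference between CAC and Con was 0.74 (SE 0.35), 2.31 (SE 0.35), 2.46 (SE 0.35) and 3.59 (SE 0.33) at 2, 4, 6 and 8 weeks. The difference between CAC and NCAC was 1.03 (SE 0.35), 2.53 (SE 0.35), 1.81 (SE 0.35) and 3.88 (SE 0.33).

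Values of the C4 genes are uncertain one by one, since 43.3% of the 31-base stretches in C4a transcripts also occur in C4b, and reads there cannot be assigned by sequence. C4a made up 6.601% ± 3.08 (SD, n = 7) of the summed TPM of both genes in CAC at 8 weeks, 10.9% ± 2.70 (n = 5) in NCAC and 13.0% ± 2.72 (n = 5) in Con. The sum of both genes differed between CAC and Con by 2.51 (SE 0.37) on the log2 scale at 2 weeks and by 5.17 (SE 0.34) at 8 weeks, close to C4b alone.

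C3, the central component of all pathways (chromosome 17, 57203970 to 57228136, minus strand), was the most abundant of the 9 genes in every group on the TPM scale. At 2 weeks it stood at 432, 567, 647, 721 and 443 TPM in CAC, 526.3, 259, 463, 394 and 405 TPM in NCAC and 351, 290.0, 469.7, 532 and 434 TPM in Con, with overlap. At 6 weeks CAC held 921, 837, 801, 831 and 741 TPM, NCAC 601, 563, 566, 637 and 539.6 TPM and Con 263, 554, 412, 396 and 456 TPM. All 5 CAC libraries then lay above the NCAC and Con libraries. At 8 weeks C3 stood at 1250.0, 1597, 463, 879, 1619, 1402 and 1348 TPM in CAC, 367, 683, 372, 553 and 395 TPM in NCAC and 407, 569, 397, 479.5 and 348 TPM in Con. Library 3 of CAC lay within the range of both other arms, and the other 6 lay above them. At 4 weeks CAC ranged over 594 to 1149.9 TPM, NCAC over 460.2 to 601 TPM and Con over 251 to 777 TPM. The log2 difference between CAC and Con was 0.44 (SE 0.24), 0.73 (SE 0.24), 1.02 (SE 0.24) and 1.39 (SE 0.22) from 2 to 8 weeks, and that between CAC and NCAC 0.46 (SE 0.24), 0.67 (SE 0.24), 0.51 (SE 0.24) and 1.31 (SE 0.22).

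RefSeq promoters (GRCm38.p6, the assembly behind mm10) were found for 4 of the 9 genes, C3, C1s1, C1ra and Cd59b, with 2 windows for C1s1. Those of C3 and the first of C1s1 are shown because each holds 1 match to a motif searched. The other C1s1 window, for a start farther into the gene, and the windows of C1ra and Cd59b hold none. The windows of C3 (chr17:57228137-57228386, minus strand) and of C1s1 (chr6:124542360-124542609, minus strand) run 5′ to 3′ over the 250 bases before the start, with capitals for a match to the C/EBP motif.
C3: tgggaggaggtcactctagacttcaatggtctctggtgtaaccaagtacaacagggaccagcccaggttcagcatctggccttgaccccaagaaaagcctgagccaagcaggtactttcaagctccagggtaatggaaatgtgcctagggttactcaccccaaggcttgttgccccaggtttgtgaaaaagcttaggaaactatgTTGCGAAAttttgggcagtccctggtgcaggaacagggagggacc
C1s1: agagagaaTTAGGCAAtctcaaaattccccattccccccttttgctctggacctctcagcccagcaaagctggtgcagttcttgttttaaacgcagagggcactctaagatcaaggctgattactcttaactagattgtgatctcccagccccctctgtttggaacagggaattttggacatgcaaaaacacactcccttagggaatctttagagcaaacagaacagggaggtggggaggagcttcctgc
The C/EBP letters TTGCNNAA, searched on both strands, begin 45 bases before the start in C3 and 242 bases before it in C1s1, where the match is on the opposite strand. Of 32851 mouse promoters of the same length 9.56% hold such a match, and a match is a description, not a site. The STAT letters TTCNNNGAA, held by 7.02% of promoters, had no match in any window of the 4 genes.

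C1ra and C1s1 encode the protease subunits of C1 and lie close together (chromosome 6, 124512405 to 124523443, plus strand, and 124530345 to 124542359, minus strand), 6901 bases apart. C1ra at 2 weeks stood at 24.6, 24.1, 12.9, 23.4 and 17.0 TPM in CAC, 15.5, 9.94, 7.90, 23.5 and 10.3 TPM in NCAC and 9.50, 10.03, 11.9, 8.25 and 10.6 TPM in Con. The lowest CAC library, library 3, exceeded all Con libraries but not all NCAC libraries. In that library C1rb, a paralog of C1ra described below, stood at 14.7 TPM. The summed TPM of C1ra and C1rb at 2 weeks was 18.4 to 27.6 in CAC, 11.1 to 25.6 in NCAC and 8.81 to 13.2 in Con. At 8 weeks C1ra stood at 27.1, 43.4, 17.9, 13.7, 38.6, 21.9 and 19.0 TPM in CAC, 9.82, 6.43, 6.53, 8.68 and 17.8 TPM in NCAC and 7.03, 12.5, 13.6, 13.8 and 12.5 TPM in Con. CAC library 4 was level with the highest Con libraries, and NCAC reached 17.8 TPM. In CAC library 4 C1rb stood at 12.7 TPM. The summed TPM of C1ra and C1rb at 8 weeks was 19.70 to 47.46 in CAC, 10.68 to 19.73 in NCAC and 13.01 to 15.08 in Con. The sum in CAC thus lay above Con without overlap, and its lowest library was level with the highest of NCAC. C1s1 followed C1ra, with 38.9, 73.1, 29.4, 18.1, 61.1, 37.7 and 28.9 TPM in CAC at 8 weeks, 17.5, 10.2, 9.79, 12.7 and 24.2 TPM in NCAC and 9.16, 21.7, 21.7, 25.2 and 21.1 TPM in Con. Again CAC library 4 was the lowest of its group and lay within both other arms. Values of C1s1 are uncertain too, since 33.5% of its 31-base stretches also occur in a paralog that is not analysed here. In each arm at 8 weeks C1s1 was lowest in the libraries with a high share of C1rb, described below. These were CAC libraries 4 and 7, NCAC libraries 2, 3 and 4, and Con library 1. The cause was not tested.

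At 4 weeks both protease genes overlapped between all arms. C1ra then ranged over 15.1 to 24.9 TPM in CAC, 5.96 to 18.4 TPM in NCAC and 6.53 to 27.5 TPM in Con, and at 6 weeks over 13.3 to 43.7 TPM in CAC, 10.5 to 24.9 TPM in NCAC and 10.4 to 19.2 TPM in Con. The log2 difference of C1ra between CAC and Con was 0.92 (SE 0.31), 0.13 (SE 0.31), 0.57 (SE 0.31) and 0.99 (SE 0.29) from 2 to 8 weeks. For C1s1 it was 0.79 (SE 0.35), 0.19 (SE 0.35), 0.45 (SE 0.35) and 0.96 (SE 0.32). Between CAC and NCAC at 8 weeks the differences were 1.30 (SE 0.29) for C1ra and 1.35 (SE 0.32) for C1s1.

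Values of C1ra are uncertain beside those of its paralog C1rb (chromosome 6, 124570294 to 124581171, plus strand), which shares 70.0% of its 31-base stretches with C1ra. The share of C1rb in the summed TPM of both genes fell into separate ranges. It was 46.0% to 54.5% in 16 libraries and 5.02% to 11.4% in the other 46. The 16 libraries were 7 of 22 in CAC, 6 of 20 in NCAC and 3 of 20 in Con. At 8 weeks C1rb stood at 1.96, 4.09, 1.81, 12.7, 2.04, 1.99 and 18.1 TPM in CAC, 0.853, 7.66, 7.30, 8.85 and 1.91 TPM in NCAC and 5.98, 1.11, 1.48, 1.23 and 1.12 TPM in Con. The sum of both genes differed between CAC and Con by 1.12 (SE 0.22), 0.29 (SE 0.22), 0.73 (SE 0.22) and 1.08 (SE 0.21) from 2 to 8 weeks, with a smaller standard error than C1ra alone. Between CAC and NCAC the sum differed by 0.43 (SE 0.22), 0.53 (SE 0.22), 0.64 (SE 0.22) and 1.00 (SE 0.21). C1ra alone differed there by 0.63, 0.37, 0.32 and 1.30, so the sum was smaller at 2 and 8 weeks and larger at 4 and 6 weeks.

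**Figure D2:**
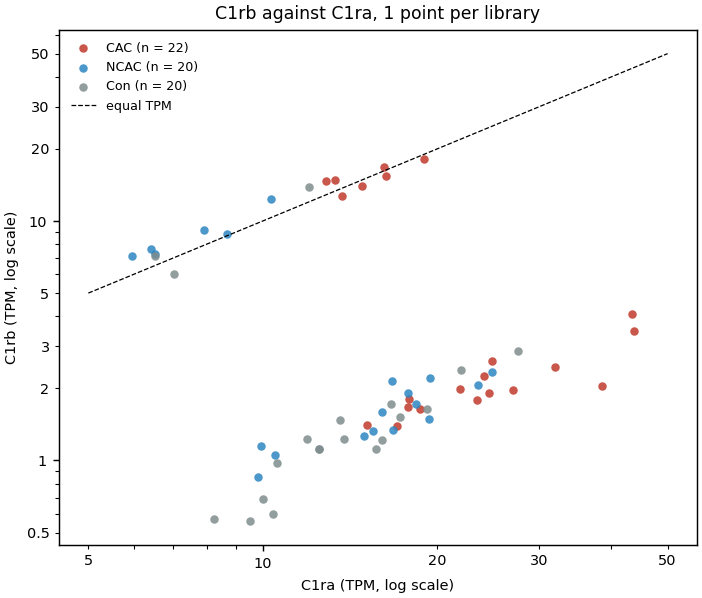
TPM of C1rb against TPM of C1ra in the 62 libraries, 1 point per library on log axes, with CAC in red, NCAC in blue, Con in grey and a dashed line of equal TPM. The 16 libraries near the line held 46.0% to 54.5% of the summed TPM in C1rb, and the other 46 held 5.02% to 11.4%.

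C2 and Cfb encode related proteases that cut C3 once bound to C4b or C3b, and their genes lie 85 bases apart on the same strand (C2 on chromosome 17, 34862604 to 34898265, and Cfb at 34856374 to 34862518, minus strand). Cfb at 2 weeks stood at 7.88, 15.3, 14.03, 10.9 and 7.80 TPM in CAC, 8.74, 5.26, 7.66, 8.65 and 10.6 TPM in NCAC and 2.24, 3.04, 5.00, 3.81 and 3.58 TPM in Con. The CAC libraries lay above Con but overlapped NCAC. At 8 weeks Cfb stood at 19.9, 39.0, 10.3, 20.1, 29.8, 18.3 and 26.3 TPM in CAC, 3.61, 5.46, 8.83, 4.92 and 5.00 TPM in NCAC and 4.80, 3.08, 3.61, 4.64 and 2.83 TPM in Con. All CAC libraries lay above both arms, library 3 by the least. The log2 difference of Cfb between CAC and Con was 1.41 (SE 0.28), 1.08 (SE 0.28), 1.99 (SE 0.28) and 2.27 (SE 0.26) from 2 to 8 weeks, and between CAC and NCAC 0.39 (SE 0.28), 0.95 (SE 0.28), 1.75 (SE 0.28) and 1.85 (SE 0.26).

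C2 was low in all groups. At 2 weeks it stood at 6.33, 8.43, 6.65, 5.41 and 4.30 TPM in CAC, 3.92, 2.70, 3.46, 5.86 and 4.67 TPM in NCAC and 2.22, 1.31, 3.43, 1.77 and 2.70 TPM in Con, and at 8 weeks at 5.60, 10.3, 6.35, 4.94, 5.03, 6.06 and 7.77 TPM in CAC, 2.50, 2.89, 4.00, 2.77 and 3.39 TPM in NCAC and 1.97, 2.47, 2.64, 4.14 and 2.43 TPM in Con. CAC lay above Con at both of these weeks and above NCAC at 8 weeks. The log2 difference between CAC and Con was 1.15 (SE 0.22), 0.48 (SE 0.22), 0.58 (SE 0.22) and 1.01 (SE 0.20) from 2 to 8 weeks, and between CAC and NCAC 0.50 (SE 0.22), 0.46 (SE 0.22), 0.55 (SE 0.22) and 0.86 (SE 0.20). Between CAC at 8 and at 2 weeks C2 differed by 0.06 (SE 0.20), against 3.31 (SE 0.34) for C4b.

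Serping1 encodes the C1 inhibitor, which blocks C1r and C1s (chromosome 2, 84765387 to 84775444, minus strand). At 2 weeks it stood at 58.6, 64.6, 59.0, 60.4 and 44.4 TPM in CAC, 30.4, 27.6, 33.9, 51.4 and 37.1 TPM in NCAC and 22.1, 23.4, 27.0, 22.5 and 25.4 TPM in Con. CAC lay above Con, and of NCAC only library 4 reached into the CAC range. At 8 weeks it stood at 113, 163, 50.7, 75.4, 111, 94.6 and 102 TPM in CAC, 25.6, 23.5, 34.6, 33.7 and 40.5 TPM in NCAC and 23.6, 31.6, 32.2, 35.7 and 27.8 TPM in Con, without overlap. The log2 difference between CAC and Con was 1.21 (SE 0.22), 0.50 (SE 0.22), 1.18 (SE 0.22) and 1.65 (SE 0.21) from 2 to 8 weeks, and between CAC and NCAC 0.68 (SE 0.22), 0.92 (SE 0.22), 1.32 (SE 0.22) and 1.60 (SE 0.21).

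Cd59b is 1 of the mouse genes for CD59, a membrane protein that stops the pore of complement from forming (chromosome 2, 104069849 to 104091187, plus strand). It was the only one of the 9 genes with a lower mean in CAC than in Con at 2 weeks, with 5.28, 3.70, 3.95, 2.65 and 4.35 TPM in CAC, 8.02, 7.88, 5.79, 8.70 and 13.4 TPM in NCAC and 4.97, 8.19, 8.55, 13.6 and 14.8 TPM in Con. CAC lay below all NCAC libraries, and Con library 1 reached into the CAC range. At 8 weeks the values were 2.48, 7.89, 4.72, 6.35, 3.84, 1.73 and 5.22 TPM in CAC, 3.10, 14.02, 4.09, 4.39 and 5.68 TPM in NCAC and 3.30, 4.81, 4.38, 3.85 and 3.36 TPM in Con, all overlapping. Between CAC and Con the log2 difference was -1.08 (SE 0.33), -0.10 (SE 0.33), -0.02 (SE 0.33) and 0.09 (SE 0.31) from 2 to 8 weeks. The paralog Cd59a, 4613 bases away, was far higher, at 98.6 ± 1.43 TPM in CAC and 94.8 ± 8.14 TPM in Con at 2 weeks (SD, n = 5 each). The summed TPM of both genes differed between CAC and Con by -0.03 (SE 0.09) at 2 weeks.

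At 4 weeks CAC and Con overlapped for 7 of the 9 genes. Cfb then ranged over 6.11 to 17.0 TPM in CAC, 2.95 to 8.75 TPM in NCAC and 2.67 to 9.62 TPM in Con, and Serping1 over 48.7 to 100.02 TPM in CAC, 22.4 to 40.4 TPM in NCAC and 29.9 to 68.4 TPM in Con. C2 ranged over 3.04 to 7.33 TPM in CAC, 2.22 to 5.21 TPM in NCAC and 2.05 to 5.69 TPM in Con. In each of these 3 genes the highest Con library reached into the CAC range, and C4b and C4a had every CAC library above every Con library. At 6 weeks Cfb ranged over 18.8 to 38.1 TPM in CAC, 4.67 to 9.41 TPM in NCAC and 3.04 to 6.87 TPM in Con, and all CAC libraries lay above both other arms. Serping1 ranged over 72.5 to 134 TPM in CAC, 23.2 to 51.7 TPM in NCAC and 28.4 to 49.6 TPM in Con, again with CAC above both. C2 ranged over 3.78 to 10.2 TPM in CAC, 3.01 to 4.90 TPM in NCAC and 2.32 to 5.00 TPM in Con, with overlap. Cd59b ranged over 4.71 to 12.02 TPM in CAC, 3.72 to 11.7 TPM in NCAC and 3.40 to 12.7 TPM in Con at 4 weeks, and over 2.71 to 6.11 TPM in CAC, 3.79 to 14.9 TPM in NCAC and 3.50 to 8.43 TPM in Con at 6 weeks, with overlap at both.

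Genes were called where limma gave a p under 0.05 after Benjamini-Hochberg adjustment over all 12581 genes. Between CAC and Con, 4 of the 9 genes (C4b, C2, Cfb and Serping1) were called higher at 2 weeks, beside 4.58% of all genes, and 1 (Cd59b) lower, beside 0.0477%. The share of all genes called higher rested on single libraries: it was 0.461% without CAC library 1, 0.572% without CAC library 2, 1.44% without CAC library 4, 0.715% without Con library 1 and 1.56% without Con library 5, and 6.91% without CAC library 5, while 4 of the 9 genes were called higher each time. The call of Cd59b was lost without any 1 of CAC libraries 1 to 4 or of the 5 Con libraries. It was also lost with no filter and with a filter at 5 TPM. At 4 weeks 3 (C4a, C4b and Cfb) were called higher, beside 0.819% of all genes. At 6 weeks 6 (all but C1ra, C1s1 and Cd59b) were called higher, beside 20.7%, and at 8 weeks 8 (all but Cd59b), beside 52.1%. Leaving out 1 library removed the call of Cfb at 4 weeks (CAC library 2 or 4, or Con library 1), of C2 at 6 weeks (CAC library 3, 4 or 5, or Con library 1, 3, 4 or 5) and of C1s1 at 8 weeks (Con library 1), and gave C3 a call at 4 weeks (CAC library 3 or Con library 2). None of the 9 was called lower at 4, 6 or 8 weeks, beside 3.03%, 0.978% and 1.97% of all genes. At 4 weeks that share was 0.00795% without Con libraries 3 and 4, 0.223% without Con library 3, 0.270% without Con library 4 and 0.302% without CAC library 2, and 6.61% without Con library 2. After rescaling the counts called higher were 4, 5, 5 and 6, beside 4.08%, 3.23%, 5.18% and 13.4% of all genes. C3 and Serping1 then gained a call at 4 weeks, and C1ra and C1s1 lost theirs at 8 weeks. C2 lost its call at 6 weeks after rescaling and under each other change of scale, filter or model, except the filter at 5 TPM. The split of all genes at 8 weeks was 6549 higher and 248 lower on TPM, and 1680 higher and 1653 lower after rescaling. The choice of the 9 genes used these contrasts, so nothing is read from the counts.

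Between CAC and NCAC, C4b alone was called higher at 2 weeks, beside 0.0397% of all genes, or 5 genes in all. With only CAC and NCAC of that week in the fit, limma called 0 genes. C4a, C4b and Serping1 were called at 4 weeks, beside 0.588%, and C4a, C4b, Cfb and Serping1 at 6 weeks, beside 5.82%. Serping1 was not called at 4 weeks once CAC library 1, 2 or 4, or NCAC library 2, 3 or 4, was left out, and Cfb gained a call without CAC library 3. At 8 weeks 8 were called, beside 37.3%, and the same 8 after rescaling, beside 12.7%. Every CAC library exceeded every Con library for 5, 2, 5 and 5 of the 9 genes at 2, 4, 6 and 8 weeks, beside 8.06%, 0.906%, 15.2% and 14.6% of all genes. Against NCAC this held for 1, 3, 5 and 5 genes, beside 3.53%, 2.07%, 6.41% and 6.82%. Within CAC, 5 genes (C4a, C4b, C3, Cfb and Serping1) were called higher at 8 than at 2 weeks, beside 15.0% of all genes. The difference between CAC and Con was called larger at 8 than at 2 weeks for 3 (C4a, C4b and C3), beside 10.2%. C3 lost that call when any 1 of 16 libraries was left out, and under every alternative run but the pseudocount of 0.1 and the filter at 5 TPM. After rescaling 2 were called, beside 3.5% of all genes. Cfb gained the call without CAC library 3 of 8 weeks, and Cd59b without Con library 1 of 2 weeks and with only the compared groups fitted. The median log2 difference of the 9 genes between CAC and Con was 0.92, 0.50, 1.02 and 1.39 from 2 to 8 weeks.

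**Figure D3:**
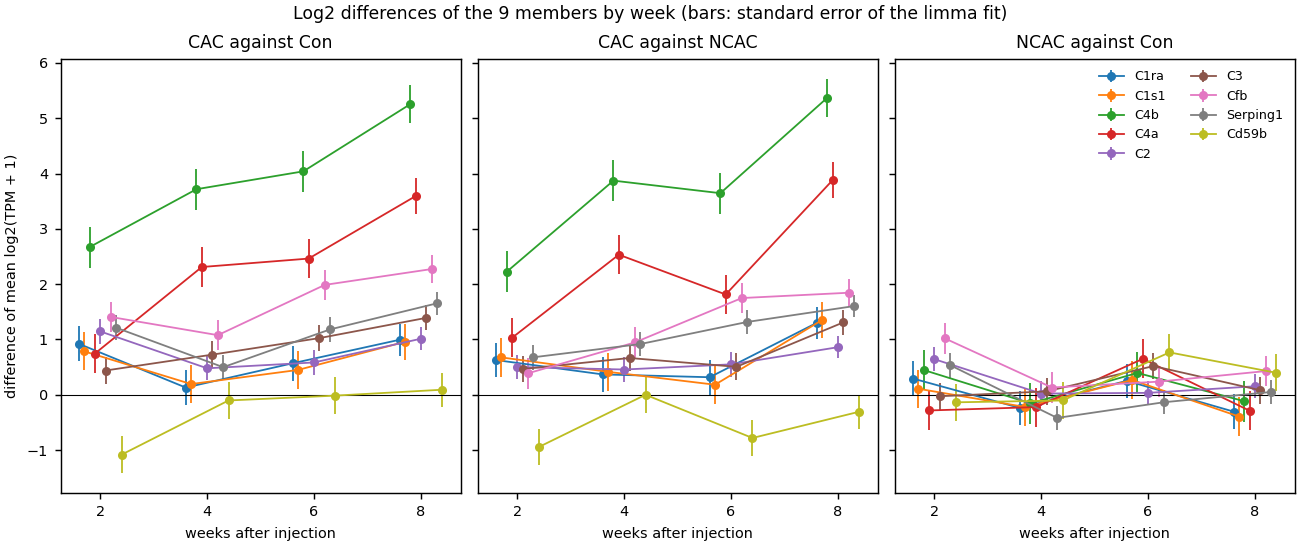
Differences of mean log2(TPM + 1) for the 9 genes by week, in 1 panel each for CAC against Con, for CAC against NCAC and for NCAC against Con, with bars for the standard error of the limma fit. C4b led at each week in both CAC panels, with 5.26 at 8 weeks against Con, and the NCAC against Con differences lay between -0.42 and 1.02.

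The summed TPM of the 9 genes changed its make-up with the arm. At 8 weeks the sum was 2076 ± 684 TPM (SD, n = 7) in CAC, 559 ± 133 TPM (n = 5) in NCAC and 529 ± 93.3 TPM (n = 5) in Con. C4b held 29.0% ± 3.77 of it in CAC, 2.44% ± 0.968 in NCAC and 2.70% ± 0.823 in Con. C3 held 58.7% ± 2.11 in CAC, 83.9% ± 5.03 in NCAC and 83.1% ± 3.38 in Con. At 2 weeks C4b held 8.27% ± 4.30 in CAC, 2.34% ± 1.01 in NCAC and 1.86% ± 0.984 in Con (n = 5 each).

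The 7 CAC libraries of 8 weeks did not vary alike over the 9 genes. Library 3 was the lowest for C4b, C3, Cfb and Serping1, while library 4 was the lowest for C1ra, C1s1, C4a and C2. In library 4 C1rb stood at 12.7 TPM. The summed TPM of C1ra and C1rb was lowest in library 3, at 19.7, so the order for C1ra differed from that of the sum. Without library 3 the log2 difference between CAC and Con at 8 weeks was 5.53 for C4b and 1.61 for C3, and with it 5.26 and 1.39. Without library 3 the same 8 genes were called higher against Con and against NCAC. Library 2 was the highest for C1ra, C1s1, C2, Cfb, Serping1 and Cd59b, and library 7 for C4b and C4a.

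**Figure D4:**
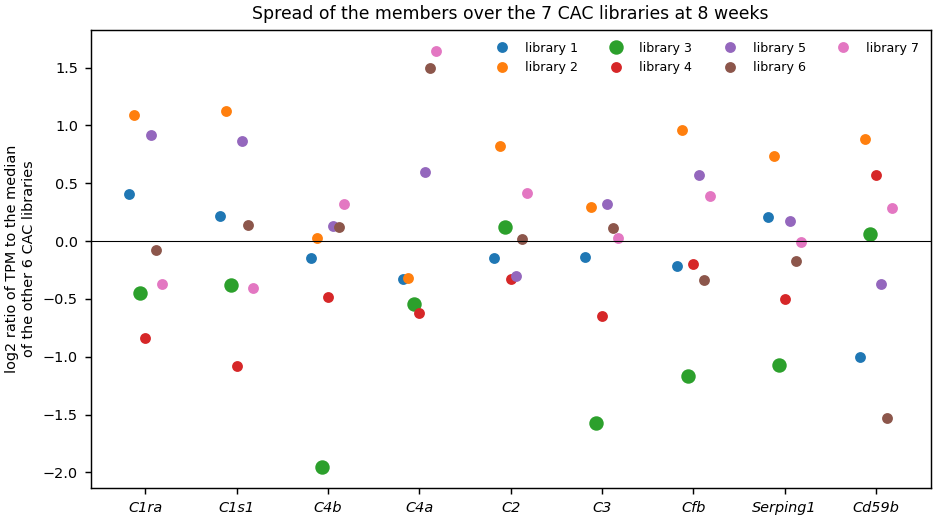
Log2 ratio of the TPM of each of the 7 CAC libraries of 8 weeks to the median of the other 6, for the 9 genes, with library 3 as a larger point. Library 3 was lowest for C4b, where it held 181 TPM, and for C3, where it held 463 TPM, but not for C2 or C4a.

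NCAC was set against Con to ask whether a tumour described as non-cachectic moved the same genes. These contrasts compare no CAC library and were tested with limma. The spread of each gene was estimated from all 62 libraries, those of CAC included. The NCAC and Con libraries are also those against which the 9 genes were selected. At none of the 4 weeks was any of the 9 genes called, and 0.0%, 0.00795%, 0.0% and 0.0% of all genes were called at 2, 4, 6 and 8 weeks. At an unadjusted p under 0.05 the counts were 3, 0, 2 and 0, beside 7.5%, 17.5%, 8.42% and 3.7% of all genes. At 2 weeks Cfb differed by 1.02 (SE 0.28, limma adjusted p = 0.309), with all 5 NCAC libraries above all 5 Con libraries. Serping1 also had every NCAC library above every Con library, with a difference of 0.53 (SE 0.22, limma adjusted p = 0.533). These were 2 of the 9 genes, beside 1.3% of all genes. C2 differed by 0.64 (SE 0.22, limma adjusted p = 0.467) with overlap. C4b differed by 0.45 (SE 0.37), -0.16 (SE 0.37), 0.40 (SE 0.37) and -0.12 (SE 0.37) from 2 to 8 weeks (limma, adjusted p = 0.87, 0.841, 0.685 and 0.984). At 6 weeks C3 differed by 0.52 (SE 0.24) and Cd59b by 0.77 (SE 0.33) (limma, adjusted p = 0.582 for each).

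Within the arms without cachectic cells, 8 weeks was compared with 2 weeks. In NCAC 0 of the 9 genes were called by limma, beside 0.0% of all genes, with 0 at an unadjusted p under 0.05, beside 3.91% of all genes. In Con 0 were called, beside 0.0318%, with 1 at an unadjusted p under 0.05, beside 20.3%. That gene was Cd59b, at 3.30, 4.81, 4.38, 3.85 and 3.36 TPM at 8 weeks and 4.97, 8.19, 8.55, 13.6 and 14.8 TPM at 2 weeks. Every Con library of 8 weeks lay below every Con library of 2 weeks, as for 9.74% of all genes, and the log2 difference was -1.08 (SE 0.33, limma adjusted p = 0.0833). The Con libraries of 2 weeks in this difference are those set against CAC at 2 weeks above. The change from 2 to 8 weeks in the NCAC against Con difference was called for 0 of the 9 genes, beside 0.0% of all genes.

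Other complement genes were counted from a list of 44, of which 42 were in the table used here and 20 passed the filter. Between CAC and Con, limma called 8, 2, 11 and 16 higher at 2, 4, 6 and 8 weeks, beside 4.58%, 0.819%, 20.7% and 52.1% of all genes, and 0 lower at each week. After rescaling the counts were 8, 5, 11 and 13, beside 4.08%, 3.23%, 5.18% and 13.4%. Their median log2 difference was 0.60, 0.26, 1.09 and 1.07 from 2 to 8 weeks, beside 0.09, -0.08, 0.18 and 0.28 over all genes. Against NCAC 0, 0, 9 and 16 were called higher at 2, 4, 6 and 8 weeks, beside 0.0397%, 0.588%, 5.82% and 37.3%, and after rescaling 13 at 8 weeks, beside 12.7%. Between NCAC and Con 0 of the 20 were called at each week, beside 0.0%, 0.00795%, 0.0% and 0.0% of all genes.

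By role at 8 weeks against Con, 5 of 6 recognition and protease genes were called higher, 2 of 2 of the alternative pathway, 2 of 3 of the terminal pathway, 2 of 2 soluble regulators, 1 of 3 membrane regulators and 4 of 4 receptors, beside 52.1% of all genes. Clu, which encodes clusterin, a soluble inhibitor of the terminal complex, rose by 3.88 (SE 0.48, limma adjusted p = 1.06e-08). The pore component C6 rose by 2.24 (SE 0.20) and C7 by 1.63 (SE 0.22). The receptor Vsig4, which binds C3 fragments on resident macrophages, rose by 2.03 (SE 0.23), and the C5a receptor C5ar1 by 1.23 (SE 0.16). Cfd, the protease adipsin, rose by 1.79 (SE 0.31). Vtn, which encodes vitronectin, another soluble inhibitor of the terminal complex, rose by 0.43 (SE 0.14, limma adjusted p = 0.00792), and lost its call after rescaling at 0.14. The C1q chains C1qb and C1qc rose by 1.73 (SE 0.26) and 1.68 (SE 0.24). Properdin, Cfp, which stabilises the C3-cleaving enzyme, rose by 0.64 (SE 0.24, limma adjusted p = 0.021), and lost its call after rescaling at 0.32. Cr1l, a membrane regulator, rose by 0.33 (SE 0.07) on TPM, was 0.00 after rescaling, and was below 0 under quantile normalization (-0.0272). C1rb (0.89, adjusted p = 0.19 by limma) and Cd59a (0.16, adjusted p = 0.0963 by limma) did not pass the test.

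**Figure D5:**
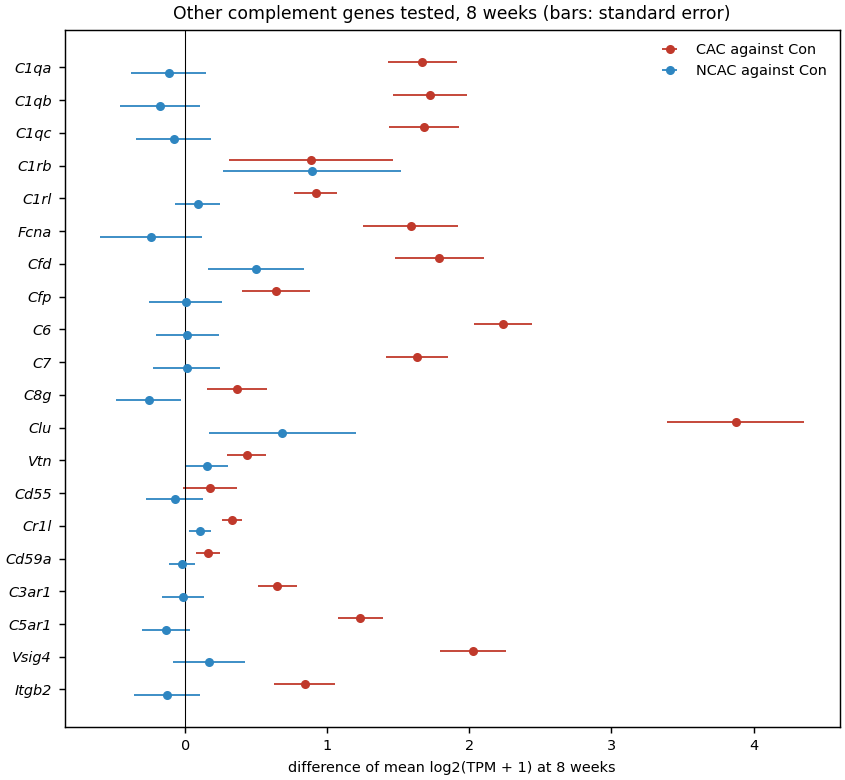
Differences of mean log2(TPM + 1) at 8 weeks for the 20 other complement genes tested, for CAC against Con (red, upper point of each pair) and NCAC against Con (blue, lower point), with bars for the standard error. Clu was farthest from 0 in CAC at 3.88. Of the 20 genes 16 were called higher in CAC, beside 52.1% of all genes, and 0 in NCAC, beside 0.0%.

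The 8 other complement genes called at 2 weeks were C1qa, C1qb, C1qc, Fcna, Cfp, Cd55, C3ar1 and C5ar1. That count rests on single libraries: it was 0 without CAC library 1 of 2 weeks, 1 without CAC library 2, 2 without Con library 1 and 5 without Con library 4. The difference between CAC and Con was larger at 8 than at 2 weeks for 6 of the 20 genes by limma, C1rl, C6, C7, Clu, C5ar1 and Vsig4, where 10.2% of all genes were called so. After rescaling 4 were called larger and 1 smaller, beside 3.5% and 3.35% of all genes.

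Markers of other cells differed in the same libraries, with 4.58%, 0.819%, 20.7% and 52.1% of all genes called higher in CAC than in Con at 2, 4, 6 and 8 weeks. Marker calls are given on TPM with all libraries only. The share of all genes was 0.461% at 2 weeks without CAC library 1, and 13.4% at 8 weeks after rescaling. Of 8 macrophage markers 4, 1, 4 and 8 were called higher in CAC than in Con at 2, 4, 6 and 8 weeks, by limma. Their summed TPM at 6 weeks was 180 to 222 in CAC, within the 84.7 to 283 of NCAC and the 97.0 to 262 of Con. At 4 weeks it was 112 to 241 in CAC, 80.6 to 139 in NCAC and 71.5 to 170 in Con. The summed TPM of the macrophage list at 8 weeks was 147 to 366 in CAC, 75.7 to 113 in NCAC and 81.1 to 97.6 in Con, and at 2 weeks 102 to 159 in CAC, 59.4 to 142 in NCAC and 56.6 to 77.4 in Con. Of 4 neutrophil markers tested 4 were higher at 6 and at 8 weeks, with Ly6g at 0 in 17 libraries. Of 8 fibroblast and progenitor markers 4 were higher at 2 weeks, with a summed TPM of 444 to 689 in CAC, 262 to 569 in NCAC and 215 to 322 in Con, and 1 at 8 weeks. Of 8 skeletal muscle markers 7 were higher at 2 weeks and 0 at 8 weeks. Their summed TPM at 2 weeks was 1020.1 to 11536 in CAC, 952 to 3321 in NCAC and 63.5 to 1914 in Con. At 4 weeks this sum was 1440 to 2434 in CAC, 882 to 3021 in NCAC and 357 to 15519 in Con. Other lists held markers that were lower in CAC at 8 weeks, where 1.97% of all genes were called lower. Of 7 markers of gland and surface epithelium 5 were lower (Krt8, Krt18, Krt19, Epcam and Aqp5), with a summed TPM of 1.03 to 38.6 in CAC, 20.2 to 126 in NCAC and 15.9 to 118 in Con. Of 3 B cell markers tested Ighm was lower, and of 6 endothelial markers Kdr was lower and Pecam1 and Tie1 were higher. The 8 hepatocyte markers, of which 1 passed the filter, summed to 1.15 to 3.34 TPM in CAC at 8 weeks, 0.394 to 1.04 TPM in NCAC and 0.144 to 0.510 TPM in Con. At 2 weeks they summed to 0.317 to 6.16 TPM in CAC and 0.245 to 164 TPM in Con, where library 1 was the highest and the next stood at 9.28 TPM. The part of these cell types in the complement differences was not tested.

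The 5 genes whose 12 group means on log2(TPM + 1) had the highest Pearson correlation with those of C4b, among 12580 others, were Il1r1 (0.992), Tmem173 (0.985), Csf2rb2 (0.984), Ccl8 (0.983) and Socs3 (0.983). Il1r1 encodes a receptor for interleukin-1, Tmem173 the DNA-sensing adaptor STING, Csf2rb2 a receptor subunit for interleukin-3, Ccl8 a chemokine and Socs3 a feedback inhibitor of cytokine signalling. The group means share libraries, a TPM total and the same separation of CAC from the rest, so these values only describe likeness. Il1r1 stood at 7.79 ± 2.61 TPM (SD, n = 7) in CAC at 8 weeks, 2.86 ± 0.261 TPM (n = 5) in NCAC and 2.75 ± 0.313 TPM (n = 5) in Con. Socs3 stood at 14.6 ± 6.47 TPM in CAC, 1.503 ± 0.417 TPM in NCAC and 1.58 ± 0.126 TPM in Con. In this order C4a was number 24 (0.976), C3 115 (0.956), Serping1 165 (0.949), Cfb 293 (0.934), C2 1135, C1ra 1585, C1s1 1676 and Cd59b 11740, with a negative correlation of -0.47.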

How the data were processed

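RNA of brown adipose tissue was analysed in 62 libraries of 12 groups of mice. The deposited values are TPM, computed by the authors for 47643 gene symbols; the build is mm10 per the submitters' processing notes, and the aligner, counter and annotation are not given in the sources used here. Libraries were prepared with a stranded TruSeq mRNA kit from Trizol extracts, per the labels' protocols. TPM holds no counts, so no count test or counting interval was possible, and the number of reads behind a value is unknown. No 2 libraries were identical. The labels call replicates biological.

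The log2(TPM + 1) scale was used, on which changes of low genes are understated, after dropping genes that did not reach 1 TPM in 5 libraries. limma 3.58.1 (R 4.3.3, trended empirical Bayes) was fitted with 1 mean per group to all 62 libraries, and 20 contrasts were adjusted by Benjamini-Hochberg over 12581 genes each. The fit was checked on simulated data. Alternatives were a pseudocount of 0.1, no filter, a filter at 5 TPM, quantile normalization, rescaling by the median of ratios, a fit of the compared groups only, the replicate number as a block, leaving out each library, and sums of paralogs. Added after seeing the data were a fit that left out Con libraries 3 and 4 of 4 weeks, and the removal of mitochondrially encoded genes with rescaling.

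The 9 genes and all lists were chosen with earlier results of these data known. Genes named beside them are the paralogs C1rb and Cd59a, the genes of each role class with the highest and lowest called difference between CAC and Con at 8 weeks (up to 2 each), Cfd, and the 5 genes most like C4b. Genes listed by name among those called at 2 weeks or with a larger difference at 8 weeks, and Il1r1 and Socs3 with levels, were chosen after their values were seen. Positions are from GENCODE M21 and promoters from RefSeq (GRCm38.p6). 2 listed complement genes are not analysed here, and a further one is not reported. Figures were drawn with matplotlib 3.10.9.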

Additional observations from a re-analysis of the deposited data

Results flagged for a closer look

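Libraries that stood apart from the rest of their group were sought in 108 groups (each of the 9 genes in each of the 12 groups), by a gap to the nearest library beyond Dixon's limit. Such a library was found in 9. The limit marks about 1 in 20 by chance if groups are independent. Here the 9 genes share their libraries, so nothing is read from the count. C1ra was high in CAC library 1 of 4 weeks (24.9 TPM). It was low in NCAC library 3 of 4 weeks (5.96 TPM) and in Con library 1 of 8 weeks (7.03 TPM). Both of these were among the 16 libraries with a high share of C1rb, which stood at 7.14 and 5.98 TPM. The summed TPM of C1ra and C1rb was 13.1 to 20.1 in NCAC at 4 weeks and 13.0 to 15.1 in Con at 8 weeks. This sum was not screened. C1s1 was low in the same NCAC library (8.30 TPM) and the same Con library (9.16 TPM). Serping1 was also low in NCAC library 3 of 4 weeks (22.4 TPM). C4a was high in CAC library 3 of 6 weeks (32.9 TPM), C4b in NCAC library 4 of 2 weeks (22.5 TPM) and Cd59b in NCAC library 2 of 8 weeks (14.02 TPM).

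The difference between CAC and Con was larger at 8 than at 2 weeks, by a limma test of the change itself, for 5 of the named complement genes outside the 9. These 5 had been named for their called difference at 8 weeks. That difference is part of the change tested, so nothing is read from the count. The change on the log2 scale was 2.85 for Clu, 2.01 for C6, 1.46 for Vsig4, 1.29 for C7 and 0.67 for C5ar1, where 10.2% of all genes were called so. After rescaling C5ar1 was 0.49 and no longer called, the other 4 kept their call, and 3.5% of all genes were called so.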

How the results depend on the processing

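Between NCAC and Con, 0 of the 9 genes were called at any week under each alternative run and without each library. For Con at 8 against 2 weeks 1 gene was called lower when the fit held only the compared groups, where 9.43% of all genes were, against 0 otherwise, and leaving out libraries gave 0 to 0. Counts of the other complement genes at 4 weeks were unstable. Between CAC and Con they were 2, but 0 with no filter, with a filter at 5 TPM and with only the compared groups, 1 with the replicate block and without Con libraries 3 and 4, 5 after rescaling, 6 under quantile normalization, 7 with mitochondrially encoded genes removed, and 0 to 4 without single libraries. Between CAC and NCAC at 4 weeks they were 0, but 1 with no filter, after rescaling and with mitochondrially encoded genes removed, and 0 to 3 without single libraries. At 2 weeks the count against Con was 8, but 5 with a filter at 5 TPM, and 0 to 8 without single libraries. At 6 weeks it was 11 to 13 and at 8 weeks 16 to 17 without single libraries. Cr1l at 8 weeks was 0.33, but -0.0272 under quantile normalization and -0.0398 with mitochondrially encoded genes removed. Cd59a was 0.16, but -0.19 after rescaling, -0.19 under quantile normalization and -0.24 with mitochondrially encoded genes removed. The cause was not tested. The replicate numbers did not pair the libraries, with correlations of same-numbered deviations from -0.39 to 0.48. The sum of C1s1 with its paralog was not run, because the paralog is not analysed here. Unknown depth limits low genes most, such as C2 and C4a.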
